A study of Mus musculus with 2 samples.

Results

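Phospholipid synthesis genes and phospholipase genes were examined in perigonadal white adipose tissue (WAT) of PeriA Tg mice, which overexpress perilipin A, and of WT mice. The genes were chosen by symbol: those starting with Pla2g, Lpcat, Pcyt or Lpgat, together with a list of named enzymes of phospholipid synthesis, acyl chain remodelling and breakdown. This gave 52 of the 18193 genes to which the platform annotation ties at least 1 probe set alone. The Tg mice were female, 30 weeks old, of the C57BL/6 background, were heterozygous for human PeriA driven by the aP2 promoter/enhancer, and had eaten a high-fat diet (HFD, 60% of calories from fat) for 25 weeks. The WT mice were female littermates without the transgene, of the same age and background and on the same diet. All mice were fasted overnight before the tissue was taken. The aP2 promoter is active in white and brown adipocytes. RNA of 3 mice was pooled for each genotype, and each pool was hybridised to 1 Affymetrix mouse genome array. With 1 array per genotype there are no replicates, so that no value has an error over mice and nothing was tested.

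Phospholipids form all cell membranes and also the monolayer around the lipid droplet of adipocytes. Phosphatidylcholine and phosphatidylethanolamine are made from diacylglycerol and an activated head group, phosphatidylserine by exchange of head groups, and cardiolipin, the lipid of the inner mitochondrial membrane, from CDP-diacylglycerol. Acyltransferases then exchange the fatty acids of finished phospholipids. Phospholipases A2 remove a fatty acid and leave a lysophospholipid, and phospholipases D remove the head group.

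The deposited values are MAS5 signals, a linear measure of how bright a probe set was, made comparable by 1 scaling factor per array, and the signal log ratio is log2(Signal of Tg/Signal of WT). A gene was read from its brightest probe set, so that signals of different genes are not comparable as levels. A gene passed the signal filter when it reached 98.2, the median signal of the arrays together, in Tg or in WT. The tissue was adipose by its markers: *Adipoq*, which encodes adiponectin, had 43803 in Tg and 41052 in WT, and *Fabp4*, the fatty acid-binding protein of adipocytes, had 53339 in Tg and 51832 in WT. Over all genes that passed the filter, 16.6% were over 0.3 and 16.9% under -0.3. All 13 brown adipocyte markers that passed the filter were over 0.3, among them *Ucp1*, the uncoupling protein, at 5.98. Of these markers, *Elovl3*, *Dio2* and *Slc27a2* passed through Tg alone and so had to be higher in Tg. Their WT signals were 61.5, 25.3 and 3.6. Macrophage markers were lower, with 17 of 25 under -0.3, none over 0.3 and a median of -0.49. The macrophage markers had a summed signal of 111147 in Tg and 146638 in WT, and none of them was listed at 0. Bright probe sets weigh most in this sum, such as that of *Lyz1* (24766 in Tg and 26284 in WT). The sum is therefore not an amount of macrophage RNA. The other 8 markers of macrophages lay between -0.28 and 0.18. Of the T and B cell markers, 4 of 7 were under -0.3 and none over 0.3 (median -0.34), and of the mesothelial markers, 6 of 11 were over 0.3 and none under -0.3 (median 0.33). *Cd8a*, among the lower T and B cell markers, passed the filter through WT alone and so had to be lower in Tg. Of 12 endothelial markers, 1 was over 0.3 and 1 under -0.3. Of 10 fibroblast and preadipocyte markers, 1 was over and 1 under. Of 15 mature adipocyte markers, 3 were over and 1 under. In bulk tissue, fewer cells of a type and less RNA per cell cannot be told apart. The arrays also differed in how the 5' ends of transcripts were read. All 8 pairs of probe sets for the spiked poly-A controls had a lower signal log ratio at the 5' end than at the 3' end, by a median of -0.55. These pairs read the spikes dap, lys, phe and thr, each more than once. The 4 such pairs for mouse transcripts were also lower at the 5' end, by a median of -0.29 (from -1.67 to -0.16). The 2 pairs for mouse 18S ribosomal RNA (0.31) and the control TrpnX (0.44), counted in neither group, went the other way. The part of these differences in the values below was not tested. No probe set, alone or shared, was listed for the gene of perilipin A in the annotation used here, so that the transgene was not examined.

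Of the 52 genes, 40 passed the filter. Their signal log ratios were under -0.3, the threshold of the study's methods, in 14 genes (35.0%), against 16.9% of the 11587 genes that passed. Those over 0.3 numbered 5 (12.5%), against 16.6% of all genes. The lower genes include 5 that passed the filter through WT alone and so had to be lower in Tg (35.7% of the 14, against 19.4% of all 1963 genes under -0.3), and 1 of the 5 higher genes, *Mboat1*, passed through Tg alone. The 12 genes under the filter reached at most 65.8 on either array. The median was -0.098 over the 40 genes and 0.022 over all genes. Past a 2-fold difference, 2 genes were under -1, the secreted phospholipase *Pla2g5* and *Pld3*, against 1.87% of all genes, and 1 was over 1, the acyltransferase *Mboat1*, against 1.02%. *Pla2g5* passed the filter through WT alone. The WT signal of *Mboat1* was below the filter, and with a pseudocount of 25.1 added to both signals its value of 0.93 was no longer past 2-fold. Among the 20 genes with a second probe set that passed, 5 (25%) were under -0.3 on the brightest probe set, against 12.3% of the 5260 genes of this kind on the array. On the second-brightest probe set, 5 of the 20 were under -0.3 as well, but 25.8% of the 5260 genes were, so that the larger share of lower phospholipid genes was not seen there. Of 24 synthesis and remodelling genes, 7 were under -0.3 and 3 over 0.3, with a median of -0.075. Of 16 phospholipase genes, 7 were under -0.3 and 2 over 0.3, with a median of -0.23. Among the 7 lower ones, *Pla2g5*, *Pla2g10* and *Pla2g4c* passed the filter through WT alone. Among the 7 lower synthesis and remodelling genes, *Lpcat2* and *Mboat2* did. These counts stand beside 16.9% under -0.3 and 16.6% over 0.3 among all genes. The phospholipase genes were grouped by name and include *Pld3* and *Pld4*, which are described below as nucleases.

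**Figure D1:**
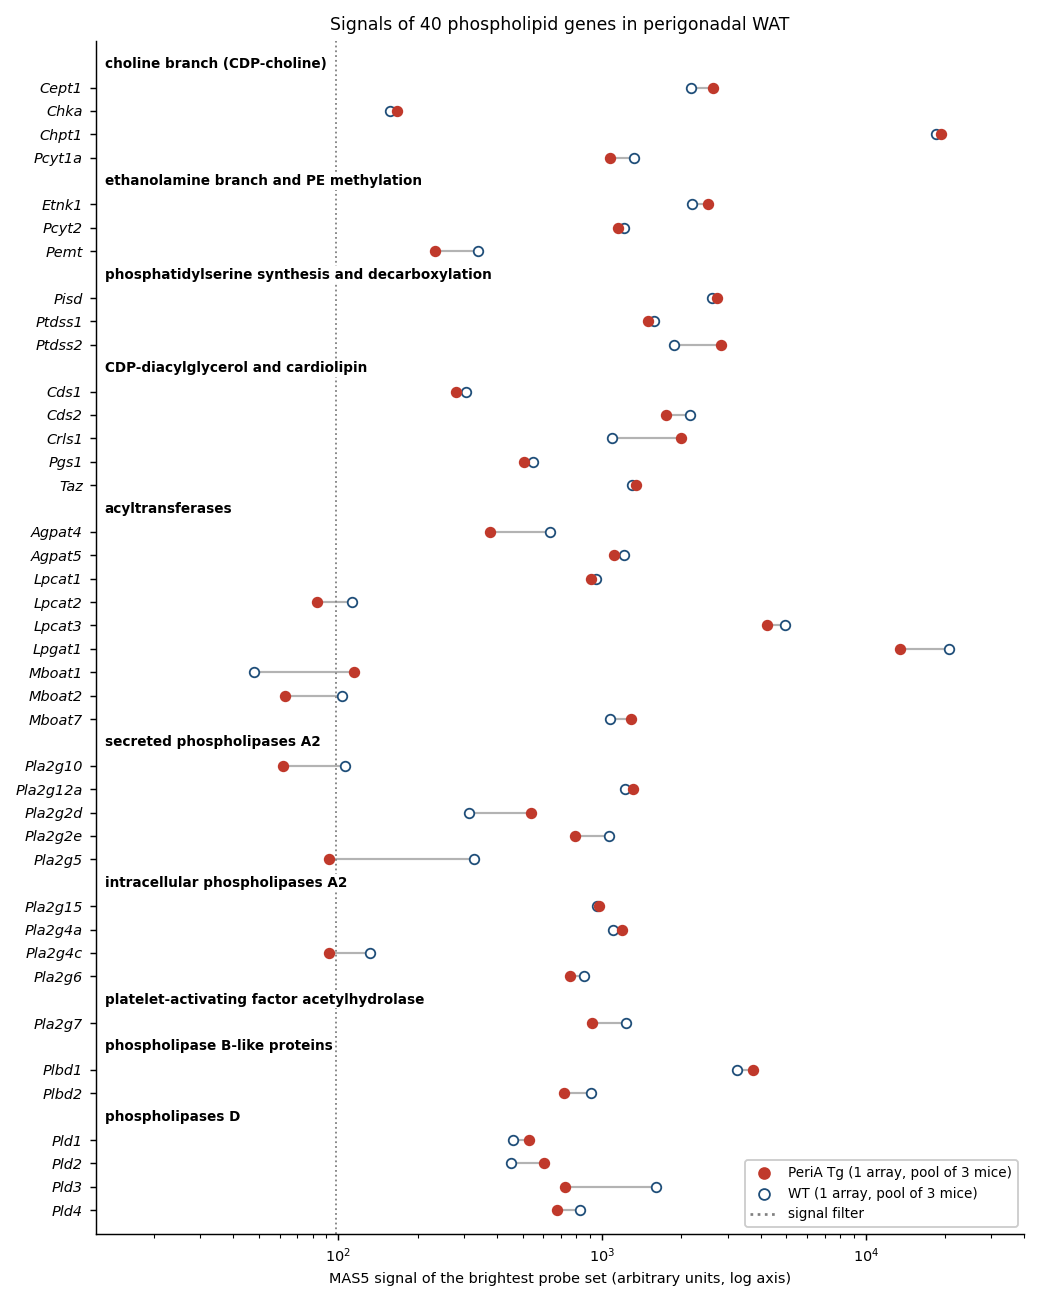
MAS5 signals of the 40 genes that passed the filter, on a log axis, with 1 filled point for the PeriA Tg array and 1 open point for the WT array per gene, grouped by role. The dotted line is the filter at 98.2; the longest bars are those of *Pla2g5*, *Mboat1* and *Pld3*, and the 2 points of *Chka*, *Chpt1* and *Pla2g15* overlap.

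**Figure D2:**
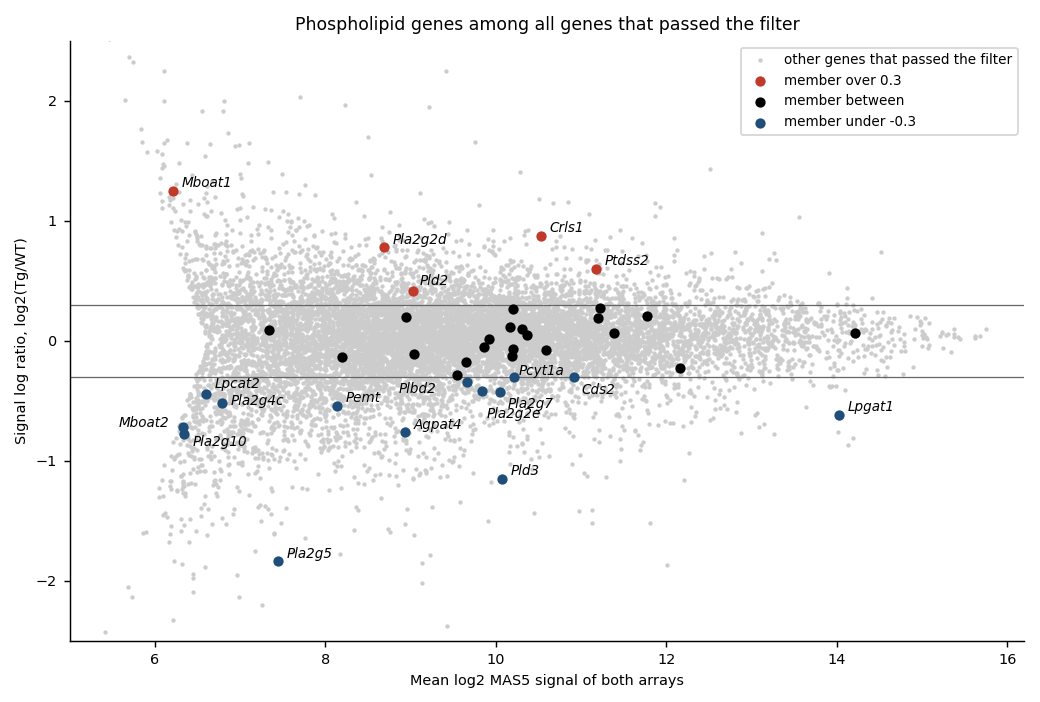
Signal log ratio, log2(Tg/WT), against mean log2 signal over Tg and WT, one point per gene, for the 40 phospholipid genes among all 11587 genes that passed the filter. Lines mark 0.3 and -0.3, and 32 genes beyond 2.5 or -2.5 are not drawn; 14 of the 40 genes lie under the lower line and 5 over the upper one.

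Promoter windows are shown for 4 genes that carry the differences described below, 1 each from the cardiolipin genes, the acyltransferases, the secreted phospholipases A2 and the phospholipases D. *Crls1* was higher in Tg, and *Lpgat1*, *Pla2g5* and *Pld3* were lower. The sequences are from RefSeq, build GRCm38.p6, and run 5′ to 3′ over 250 bases before and 50 bases after an annotated transcript start. Windows were found for 46 of the 52 genes, 61 windows in all. Capitals mark matches, on either strand, to AGGTCA (the core site of nuclear receptors), CACGTG (E-box), TGACGTCA (CRE), GGGCGG (GC box), GAGGAAGT (a site of the myeloid factor PU.1) or TATAAA, the letters of the TATA box. For *Crls1* and *Lpgat1*, the more upstream of 2 windows is given.
*Crls1*, chr2:132846416-132846715, plus strand: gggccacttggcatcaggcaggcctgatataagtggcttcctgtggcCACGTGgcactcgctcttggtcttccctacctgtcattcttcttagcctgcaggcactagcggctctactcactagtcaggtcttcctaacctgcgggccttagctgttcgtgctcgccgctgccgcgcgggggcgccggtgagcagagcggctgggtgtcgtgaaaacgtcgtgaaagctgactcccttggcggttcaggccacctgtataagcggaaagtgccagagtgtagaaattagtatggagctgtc
*Lpgat1*, chr1:191717774-191718073, plus strand: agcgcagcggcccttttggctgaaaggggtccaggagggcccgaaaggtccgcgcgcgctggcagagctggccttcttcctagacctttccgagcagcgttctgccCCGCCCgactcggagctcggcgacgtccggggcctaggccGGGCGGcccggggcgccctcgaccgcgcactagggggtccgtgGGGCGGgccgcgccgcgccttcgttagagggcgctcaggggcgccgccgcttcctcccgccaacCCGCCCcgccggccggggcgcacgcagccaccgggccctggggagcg
*Pla2g5*, upstream window, chr4:138863420-138863719, minus strand: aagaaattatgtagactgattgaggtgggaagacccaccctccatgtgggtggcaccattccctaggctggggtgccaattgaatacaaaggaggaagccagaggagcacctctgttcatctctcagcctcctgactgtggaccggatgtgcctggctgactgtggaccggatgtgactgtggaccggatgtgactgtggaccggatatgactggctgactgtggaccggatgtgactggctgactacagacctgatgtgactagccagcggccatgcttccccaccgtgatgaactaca
*Pla2g5*, downstream window, chr4:138819208-138819507, minus strand: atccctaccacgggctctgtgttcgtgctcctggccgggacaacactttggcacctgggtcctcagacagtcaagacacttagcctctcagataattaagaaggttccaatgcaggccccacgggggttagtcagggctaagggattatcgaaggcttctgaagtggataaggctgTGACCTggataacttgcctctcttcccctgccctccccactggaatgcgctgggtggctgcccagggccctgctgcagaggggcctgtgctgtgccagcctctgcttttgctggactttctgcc
*Pld3*, chr7:27553169-27553468, minus strand: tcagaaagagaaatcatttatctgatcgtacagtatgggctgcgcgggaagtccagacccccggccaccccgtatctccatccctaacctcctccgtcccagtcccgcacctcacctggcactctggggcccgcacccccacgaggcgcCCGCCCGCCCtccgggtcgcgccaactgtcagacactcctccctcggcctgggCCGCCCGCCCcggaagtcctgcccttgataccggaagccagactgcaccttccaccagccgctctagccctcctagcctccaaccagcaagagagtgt
The *Crls1* window had an E-box that began at position -203 from the start, a motif found in 7.15% of all 32851 windows, and its downstream window had no match. The *Lpgat1* window had GC boxes at -144, -104, -61 and 4, and the *Pld3* window had overlapping pairs at -101 and -97 and at -48 and -44. GC boxes were found in 35.7% of all windows and in 32 of the 61 windows of phospholipid genes: in 10 of the 20 of genes under -0.3, in 4 of the 7 of genes over 0.3 and in 16 of the 23 of genes between the thresholds. The upstream window of *Pla2g5* had no match, and its downstream window had 1 nuclear receptor core site at -74, a motif found in 16.3% of all windows. Among the 20 windows of genes under -0.3, nuclear receptor core sites were found in 3 and a TATA box in 1, against 13.6% of all windows for the TATA box. E-boxes, CREs (in 1.79% of all windows) and PU.1 sites (in 3.2%) were found in none of these 20. A match is a description of the letters only.

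In the choline branch, the transcripts of the first and last enzymes differed little between the genotypes, and that of the middle, rate-limiting enzyme was slightly lower in Tg. *Chka*, choline kinase alpha, had signals of 167.5 in Tg and 157.3 in WT. Its 3 probe sets lay between 0.076 and 0.13. *Pcyt1a*, the enzyme that makes CDP-choline and sets the rate of the branch, had 1069 in Tg and 1321 in WT, a signal log ratio of -0.31, just past the threshold. All 4 probe sets of *Pcyt1a* were negative, from -1.02 to -0.30. *Chpt1*, the cholinephosphotransferase of the last step, had 19371 in Tg and 18555 in WT, and its 4 probe sets lay between 0.040 and 0.25. *Cept1*, which transfers either choline or ethanolamine head groups, had 2627 in Tg and 2180 in WT (0.27). *Pcyt1b*, the second isoform of the enzyme that makes CDP-choline, did not pass the filter, with 37.7 in Tg and 49.5 in WT.

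Of the 3 chosen genes of the ethanolamine branch and of phosphatidylethanolamine methylation, *Pemt* was the 1 past the threshold. *Pemt* encodes the methyltransferase that turns phosphatidylethanolamine into phosphatidylcholine, and its only probe set had 232.5 in Tg and 339.3 in WT (-0.55). *Pcyt2*, which makes CDP-ethanolamine, had 1153 in Tg and 1209 in WT. *Etnk1*, ethanolamine kinase, had 2514 in Tg and 2202 in WT on its brightest probe set (0.19), whereas its other 4 lay between -0.96 and -0.12, so that its direction depends on the probe set. *Etnk2* was not analysed here. *Selenoi*, the ethanolaminephosphotransferase gene, is outside the rule and was counted with the other synthesis genes. It had 924 in Tg and 660 in WT (0.49), and was named after its signals were seen.

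Of the phosphatidylserine genes, *Ptdss2* was over 0.3. *Ptdss2* encodes the synthase that exchanges the head group of phosphatidylethanolamine for serine, and its brightest probe set had 2840 in Tg and 1876 in WT (0.60). Of its other 4 probe sets that passed, 2 were also over 0.3, at 0.43 and 0.55, and 2 were negative, at -0.10 and -0.26. *Ptdss1*, the synthase that starts from phosphatidylcholine, had 1492 in Tg and 1578 in WT. *Pisd*, the mitochondrial decarboxylase that turns phosphatidylserine into phosphatidylethanolamine, had 2741 in Tg and 2623 in WT. Both of the last-named genes lay between the thresholds.

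The cardiolipin genes did not move together. *Crls1*, cardiolipin synthase, which catalyses the last step at the inner mitochondrial membrane, had 2001 in Tg and 1092 in WT, a 1.83-fold higher signal (signal log ratio 0.87). Its other probe set had 1671 in Tg and 1174 in WT (0.51). The steps before it were not higher. *Pgs1*, which makes phosphatidylglycerol phosphate, had 507 in Tg and 549 in WT (-0.11), and its other 3 probe sets were lower, from -0.63 to -0.36. *Cds2*, one of the enzymes that make CDP-diacylglycerol, had 1743 in Tg and 2148 in WT (-0.30, past the threshold by 0.002), and all 6 of its probe sets were negative, from -1.13 to -0.090. *Cds1*, the other enzyme of this step, had 278 in Tg and 306 in WT. *Taz*, tafazzin, which remodels the acyl chains of cardiolipin, had 1341 in Tg and 1295 in WT (0.051). Thus *Crls1* was over 0.3 on both of its probe sets, and no other gene of the group was over 0.3 on any probe set that passed.

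Among the acyltransferases, 4 of 9 genes were under -0.3 and 1 was over 0.3, with a median of -0.23, beside 16.9% and 16.6% of all genes. Of the 4 lower genes, *Lpcat2* and *Mboat2* passed the filter through WT alone. *Lpgat1*, an acyltransferase of lysophospholipids first described for lysophosphatidylglycerol, had 13443 in Tg and 20661 in WT (-0.62). All 4 of its probe sets that passed were under -0.5, down to -0.90. *Agpat4*, an acyltransferase of lysophosphatidic acid, had 375 in Tg and 636 in WT (-0.76), and its other probe set had 216 in Tg and 338 in WT (-0.65). These genes and *Crls1* were the 3 for which several probe sets passed and all of them were past the threshold in the same direction.

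*Mboat1* and *Mboat2*, related acyltransferases of lysophospholipids, went opposite ways, both at signals near the filter. *Mboat1* had 114 in Tg and 48.1 in WT (1.25), whereas its other probe set, which did not pass the filter, had 31.1 in Tg and 58.3 in WT (-0.91). *Mboat2* had 62.6 in Tg and 103 in WT (-0.72). *Lpcat2*, known for its part in the synthesis of platelet-activating factor in inflammatory cells, was also dim, with 83.1 in Tg and 113 in WT (-0.44). The remaining enzymes lay between the thresholds. *Lpcat3*, which places polyunsaturated fatty acids into phospholipids, had 4233 in Tg and 4956 in WT (-0.23). *Mboat7*, which places arachidonic acid into phosphatidylinositol, had 1293 in Tg and 1077 in WT (0.26). *Lpcat1*, known from lung surfactant, had -0.056, with 0.45 and 0.022 on its other probe sets that passed, and *Agpat5*, a mitochondrial relative of *Agpat4*, had -0.13. *Lpcat2b* and *Lpcat4* did not pass the filter.

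**Figure D3:**
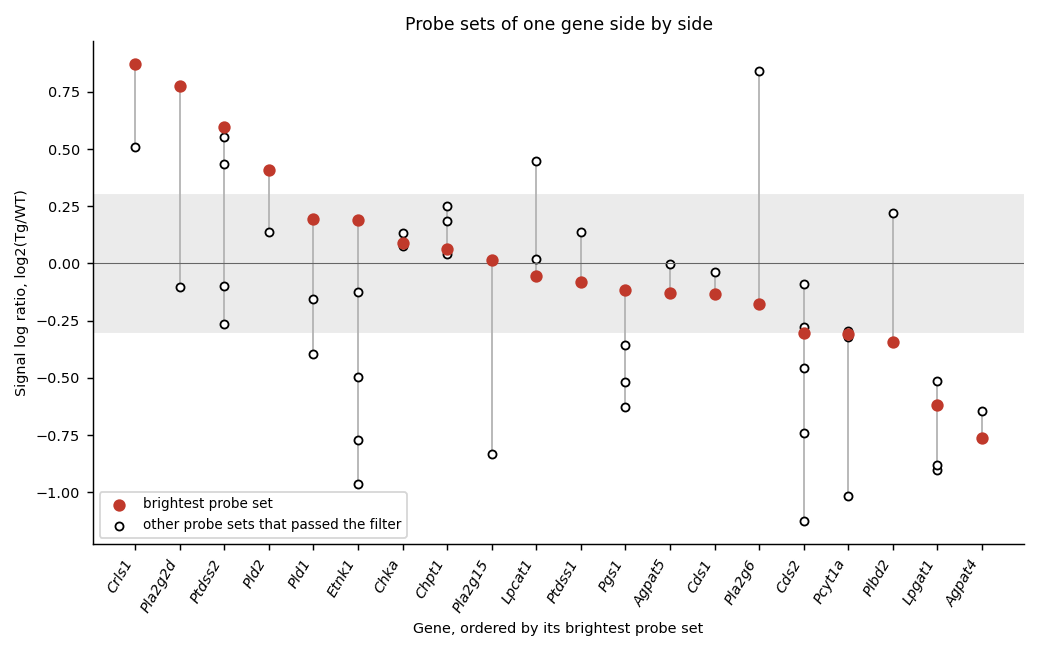
Signal log ratios, log2(Tg/WT), of every probe set that passed the filter, for the 20 genes with at least 2 of them, ordered by the brightest probe set (filled points); open points are the other probe sets and the grey band covers -0.3 to 0.3. All probe sets of *Crls1*, *Lpgat1* and *Agpat4* lie outside the band on one side, whereas those of *Pla2g6*, *Etnk1* and *Ptdss2* lie on both sides of 0.

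The secreted phospholipases A2 held the lowest value of all 40 genes. *Pla2g5*, an enzyme known from hypertrophic adipocytes and macrophages of mice, had 91.8 in Tg and 328.2 in WT on its only probe set, a 3.58-fold lower signal (-1.84). The Tg signal was below the filter and the WT signal well above it. *Pla2g5* thus passed through WT alone and had to be lower in Tg. *Pla2g2e*, a relative that is also known from adipocytes of obese mice, had 791 in Tg and 1061 in WT (-0.42). *Pla2g10* was dim, with 61.7 in Tg and 106 in WT (-0.78), and also passed through WT alone. *Pla2g2d*, known from dendritic cells and resident macrophages, was the only secreted enzyme over 0.3, with 538 in Tg and 314 in WT (0.78), but its other probe set had 227 in Tg and 243 in WT (-0.10). *Pla2g12a* had 1308 in Tg and 1226 in WT (0.094). The other 6 secreted enzymes did not pass the filter. Among them, *Pla2g2a*, which is disrupted by a natural mutation in C57BL/6 mice, had 32.7 in Tg and 28.6 in WT, and *Pla2g1b*, the enzyme of the pancreas, had 9.0 in Tg and 5.8 in WT. *Pla2r1*, a receptor of secreted phospholipases A2, had 466 in Tg and 316 in WT (0.56).

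The intracellular phospholipases A2 differed less. *Pla2g4a*, the calcium-dependent enzyme that releases arachidonic acid, had 1193 in Tg and 1102 in WT (0.12). *Pla2g6*, a calcium-independent enzyme, had 755 in Tg and 854 in WT (-0.18), whereas its dimmer probe set had 158 in Tg and 88.0 in WT (0.84). *Pla2g15*, the phospholipase of lysosomes, had 972 in Tg and 961 in WT (0.017), and 215 in Tg and 383 in WT (-0.83) on its other probe set. *Pla2g4c* was the only gene of this group under -0.3, at low signals of 92.1 in Tg and 132 in WT (-0.52). *Pla2g4d*, *Pla2g4e* and *Pla2g4f* were under the filter. *Pla2g7*, a secreted hydrolase of platelet-activating factor and oxidised phospholipids that macrophages make, had 916 in Tg and 1232 in WT (-0.43). For comparison, the main phospholipase A2 of adipocytes, named *Plaat3* in the annotation and thus outside the rule, had 24513 in Tg and 21952 in WT (0.16); it was named after its signals were seen.

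*Pld3* stood apart within the phospholipase D family. Although named for their sequence, PLD3 and PLD4 are nucleases of the endolysosome that break down single-stranded DNA and RNA. *Pld3* had 722 in Tg and 1606 in WT, a 2.22-fold lower signal (-1.15). *Pld4*, which is known from microglia and other myeloid cells, had 676 in Tg and 823 in WT (-0.28), within the threshold. The enzymes that cleave phosphatidylcholine were not lower on their brightest probe sets. *Pld1* had 527 in Tg and 461 in WT (0.19), with -0.40 and -0.16 on its other 2 probe sets. *Pld2* had 601 in Tg and 452 in WT (0.41), and its other probe set had 0.14. Of the phospholipase B-like proteins, *Plbd1* had 3743 in Tg and 3251 in WT (0.20). The brightest probe set of *Plbd2*, a lysosomal protein, had 717 in Tg and 911 in WT (-0.35), but its other one had 235 in Tg and 202 in WT (0.22).

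Macrophages are among the cells known to make *Pla2g7*, *Lpcat2* and *Pla2g5*, but no list of such phospholipid genes was drawn up, and no count is given. Of the macrophage markers, *Trem2*, a lipid receptor of macrophages in obese fat, had 294.5 in Tg and 1062 in WT (-1.85), *Gpnmb* had 1324 in Tg and 3804 in WT (-1.52), and *Cd68*, a lysosomal protein of macrophages, had 1453 in Tg and 3183 in WT (-1.13). *Adgre1*, which encodes the F4/80 antigen, had 2335 in Tg and 2837 in WT (-0.28), a value within the threshold. Other markers, named after their signals were seen, differed little: *Csf1r* had 7708 in Tg and 8612 in WT (-0.16), *Mrc1* had 4597 in Tg and 4610 in WT (-0.0039), and *Cd14* had 1071 in Tg and 948 in WT (0.18). Among the phospholipid genes known from such cells, *Pla2g2d* was over 0.3 on its brightest probe set and *Pld4* was within the threshold. The part of macrophages in these values was not tested.

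Other genes of phospholipid metabolism were counted in the same way, beside 16.6% over 0.3 and 16.9% under -0.3 among all genes. Of 24 other genes of phospholipid synthesis and its precursors that passed the filter, 6 were over 0.3 (25%) and 5 under -0.3 (20.8%), with a median of 0.089. *Gpat3*, which acylates glycerol 3-phosphate, had 5734 in Tg and 2655 in WT (1.11). The choline transporter-like genes *Slc44a3* and *Slc44a2* went opposite ways. *Slc44a3* had 501 in Tg and 244 in WT (1.04), and *Slc44a2* had 943 in Tg and 1703 in WT (-0.85). Their brighter relative *Slc44a1* differed little, with 2091.8 in Tg and 1994.5 in WT (0.069). *Lpin3*, a phosphatidate phosphatase, had 3.40 in Tg and 127 in WT, where the Tg signal is at the lower end of the array. Of 37 other phospholipases and lysophospholipases, 5 (13.5%) were over 0.3 and 11 (29.7%) under -0.3, with a median of -0.064. The largest differences were those of *Plaat5* (-1.13), *Plcl2* (-1.11), *Gdpd3* (-0.81) and *Ddhd2* (0.78), a phospholipase A1 that had 2793 in Tg and 1630 in WT. Of 27 genes of phospholipid transfer, flipping and scrambling, 5 were over 0.3 (18.5%) and 4 under -0.3 (14.8%), and their median was 0.029. *Pctp*, the phosphatidylcholine transfer protein, had 237 in Tg and 159 in WT (0.57), *Atp10a*, a flippase, had 307 in Tg and 671 in WT (-1.13), *Atp8b4* had -0.61, and *Prelid3a* was dim at -1.21. Of 10 genes of lysophospholipid signalling, 3 were under -0.3, *Lpar3* (-0.99), *Gpr34* (-0.45) and *Plpp2* (-0.37), and 1 was over 0.3, *Pla2r1*. Some of the lower genes in these lists passed the filter through WT alone and so had to be lower in Tg. They were *Lpin3*, *Plaat5*, *Gdpd3*, *Plcl1*, *Plcb2*, *Prelid3a* and *Lpar3*. Among the higher genes, *Tmem30b*, of the transfer, flipping and scrambling list, passed through Tg alone.

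How far probe sets of one gene differed sets a limit to single values. Of the 19 genes past a threshold, 10 rested on 1 probe set that passed. In 6 of the other 9, all probe sets had the same sign, and in 3 all were past the threshold. The pooled SD between probe sets was 0.34 over the 20 genes with at least 2 that passed, against 0.41 over 5260 such genes on the array. This spread covers readings of the same pools and not mice. Of the 41 dimmer probe sets, 26 (63.4%) had a lower signal log ratio than the brightest of the same gene, against 59.3% over all genes. Thus the values of *Pcyt1a*, *Cds2*, *Plbd2* and *Pld2*, all between 0.30 and 0.41 in size, are no larger than the SD over the array.

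**Figure D4:**
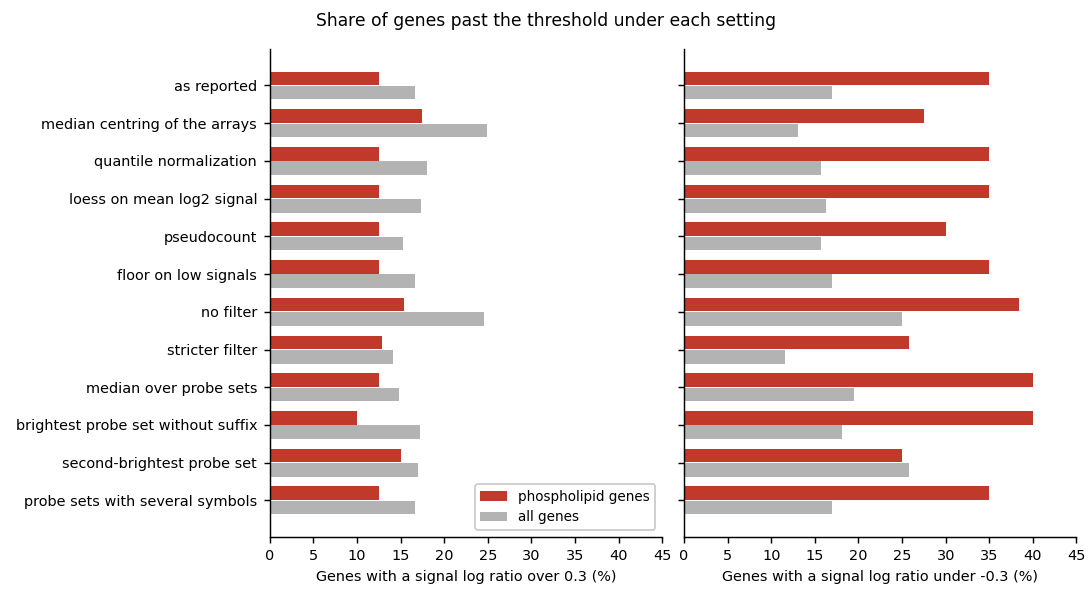
Share of genes with a signal log ratio over 0.3 (left) and under -0.3 (right) as reported and under 11 other settings of scaling, filter and probe set, for the phospholipid genes (upper bars) and all genes (lower bars), in percent of the genes with a value. On the right the phospholipid genes exceed all genes as reported and under 10 of the 11 settings, with the second-brightest probe set as the exception.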

How the data were processed

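Genes were chosen, and the lists of related genes and cell type markers written, with earlier results of these data known. Gene expression was measured with 2 Affymetrix arrays, 1 per genotype, each with RNA pooled from 3 mice. The deposited intensity values are signals that the authors computed in GeneChip Operating Software ver1.4, and MAS5 stands, unversioned, in the submitters' processing notes. MAS5 weighs perfect-match against mismatch probes, gives 1 signal per probe set and scales each array as a whole. Without the lowest and highest 2%, the mean was 500.0 on both arrays. Low signals are imprecise because mismatch brightness is taken off. The authors kept Present probe sets, whereas the deposited table holds all 45101; the signal filter stands in for that call. Signals were not normalized further, no pseudocount was added, and 64 control probe sets were left out.

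Gene symbols came from the platform annotation of 2016; a probe set that lacked a symbol or had several gave no gene. All genes of the rule could be named; from each other list, up to 4 with the largest signal log ratio and a few check genes were named. *Plaat3* and some further genes of the other lists were added after their values were seen. Lists are described by counts and medians beside all genes that passed the filter, and no test was possible with 1 array per genotype. Tried instead were loess (span 0.3), quantile normalization, median centring, a pseudocount of 25.1, a floor of 56.9, no filter, a filter at 470.5, the median over probe sets, probe sets without a suffix for shared transcripts, the second-brightest probe set, and probe sets with several symbols. The number of arrays limits the precision. The gene table was tested on simulated data with known shifts. Software was matplotlib 3.10.9, numpy 2.4.6, pandas 2.3.3 and statsmodels 0.14.6, under Python 3.11.15.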

Additional observations from a re-analysis of the deposited data

How the results depend on the processing

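As reported, 5 genes were over 0.3 and 14 under -0.3. Without the filter, 8 of 52 genes were over 0.3; with the stricter filter, 8 of 31 were under -0.3 (25.8%, against 11.5% of all genes). On probe sets without a suffix, 3 of 30 genes were over 0.3, and on second-brightest probe sets 3 of 20 were over 0.3 and 5 under -0.3. The other counts stayed within 1.5 times the reported ones. The median of the phospholipid genes lay between -0.18 and -0.014 under the alternatives. Of the genes past a threshold, those over 0.3 made up 26.3%, and 38.9% after median centring (all genes: 49.6% and 65.7%). On second-brightest probe sets, 3 genes past the threshold changed sign: *Pla2g2d* (-0.10), *Plbd2* (0.22) and *Ptdss2* (-0.097); the cause was not tested. Of the 19 genes past a threshold, 13 stayed past it under every alternative that gave a value, 11 of them lower and 2 higher in Tg. Of these 13, 10 had 1 probe set that passed, so that the alternatives on probe sets gave the same value or none. With 1 array of pooled RNA per genotype, no error over mice can be given. No paired analysis was possible because each genotype has 1 array.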

Other observations

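A pair of probe sets was annotated to genes of this group together with other genes. They entered none of the reported values, and that of *Pisd* (-0.14) was read only in the alternative that let in probe sets with several symbols. The probe set shared by *Pisd*, *Pisd-ps1* and *Pisd-ps3* had signals of 2772 in Tg and 3059 in WT. The probe set shared by *Gm28042* and *Pla2g4b* had 36.8 in Tg and 44.6 in WT, under the filter.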
